A study of Mus musculus with 12 samples.

Results

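Blood vessels of the mouse frontal cortex were followed through 33 genes of vessel cells, of 47069 genes in the count table. The genes were taken by symbol from a list of names, which was drawn up with earlier results of these data known. Of the 33, 21 mark endothelial cells, which line the vessels and form the blood-brain barrier, and 12 mark mural cells, the pericytes and smooth muscle cells wrapped around them. All 33 were in the table and all 33 had enough counts to be tested, among 17286 tested genes.

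The 12 RNA libraries came from male C57BL/6 mice, 3 per group in 4 groups, and were made from frontal cortex of both hemispheres, labelled prefrontal cortex. Mice labelled HDAC2(loxP,loxP), CamKIIa-Cre(+,-) were given clozapine (libraries 3, 4 and 5) or vehicle (2, 4 and 5), and mice labelled wild-type were given clozapine (2, 3 and 5) or vehicle (1, 3 and 4). Clozapine is an antipsychotic drug and was given chronically at 10 mg/kg. Hdac2 encodes a histone deacetylase, and the design asks how the drug and the conditional knockout change cortical gene expression. The CaMKIIa promoter drives Cre in forebrain excitatory neurons, so vessel cells are not the cells in which the gene is meant to be deleted. The wild-type label names no loxP allele and no Cre, and does not say whether those mice carried either. Effects of the loxP alleles or of Cre as such therefore cannot be told apart from those of the deletion. The labels give no age and do not say whether animals were pooled or are the same across groups, so each p-value speaks only of the spread among these libraries.

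In the brain, endothelial cells are joined by tight and adherens junctions, carry transporters for glucose, lipids, hormones and drugs, and answer to VEGF and angiopoietins through receptor tyrosine kinases. Pericytes are recruited by PDGF-B through the receptor Pdgfrb, share the basement membrane with the endothelium and help to hold the barrier closed. Smooth muscle cells surround arteries and arterioles and set their diameter. In bulk tissue, fewer cells of a type and less RNA per cell cannot be told apart.

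Total counts per library lay between 23408372 and 28069638. Hdac2 was at 73.9, 70.5 and 71.2 CPM (counts scaled to library size) in the clozapine libraries labelled knockout and at 75.4, 76.6 and 73.3 CPM in the vehicle libraries labelled knockout, against 75.5, 72.4 and 73.5 CPM in wild-type clozapine libraries and 75.7, 63.4 and 70.0 CPM in wild-type vehicle libraries. The gene was thus not lower in the libraries labelled knockout, with a log2 difference of 0.03 averaged over treatments (95% interval -0.05 to 0.12, adjusted p = 0.651). These values count the whole gene, the labels do not say which exons lie between the loxP sites, and the genotype is therefore given as labelled throughout. The 4 markers of cortical excitatory neurons summed to 6360 to 6470 CPM in labelled-knockout clozapine libraries and 5250 to 6140 CPM in labelled-knockout vehicle libraries, against 5350 to 5490 CPM in wild-type clozapine libraries and 5770 to 6250 CPM in wild-type vehicle libraries. These sums overlapped between genotypes under vehicle and lay apart under clozapine, and within each genotype they lay apart between treatments. One library stood apart in another tissue's genes: the 5 choroid plexus markers summed to 60.0 CPM in wild-type vehicle library 3, with Ttr alone at 53.3 CPM, against 3.72 to 9.17 CPM in the other libraries. The genotype comparison of the vessel genes under vehicle is therefore also given without that library.

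Per kilobase of exon, counted over all annotated exons of a gene, the vessel genes spanned a wide range. This length, 16064 bases for Vwf, can exceed that of the expressed transcript, so the order of genes is approximate. Bsg, which encodes the membrane glycoprotein basigin and is expressed well beyond vessels, was highest with a mean of 224 CPM per kb over the 12 libraries. The pericyte gene Vtn (vitronectin) followed at 37.0 CPM per kb, then the glucose transporter Slc2a1 at 35.1 and the tight junction gene Cldn5 at 25.8 CPM per kb. Itm2a, Ly6c1, Ly6a and Rgs5 lay between 15.7 and 24.6 CPM per kb. The lowest were Emcn at 1.02, the pericyte potassium channel subunit Abcc9 at 1.10, Vwf at 1.20, Icam2 at 1.21 and the VEGF receptor Kdr at 1.23 CPM per kb. Over the libraries, neighbours in this order often overlapped: Vtn ranged over 31.4 to 42.7 and Slc2a1 over 28.3 to 45.6 CPM per kb, whereas Bsg, at 212 to 237 CPM per kb, lay apart from every other member. Depth behind the members differed, from 30 to 93 counts per library for Icam2 and 30 to 67 for the pericyte gene Higd1b up to 11952 for Bsg.

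**Figure D1:**
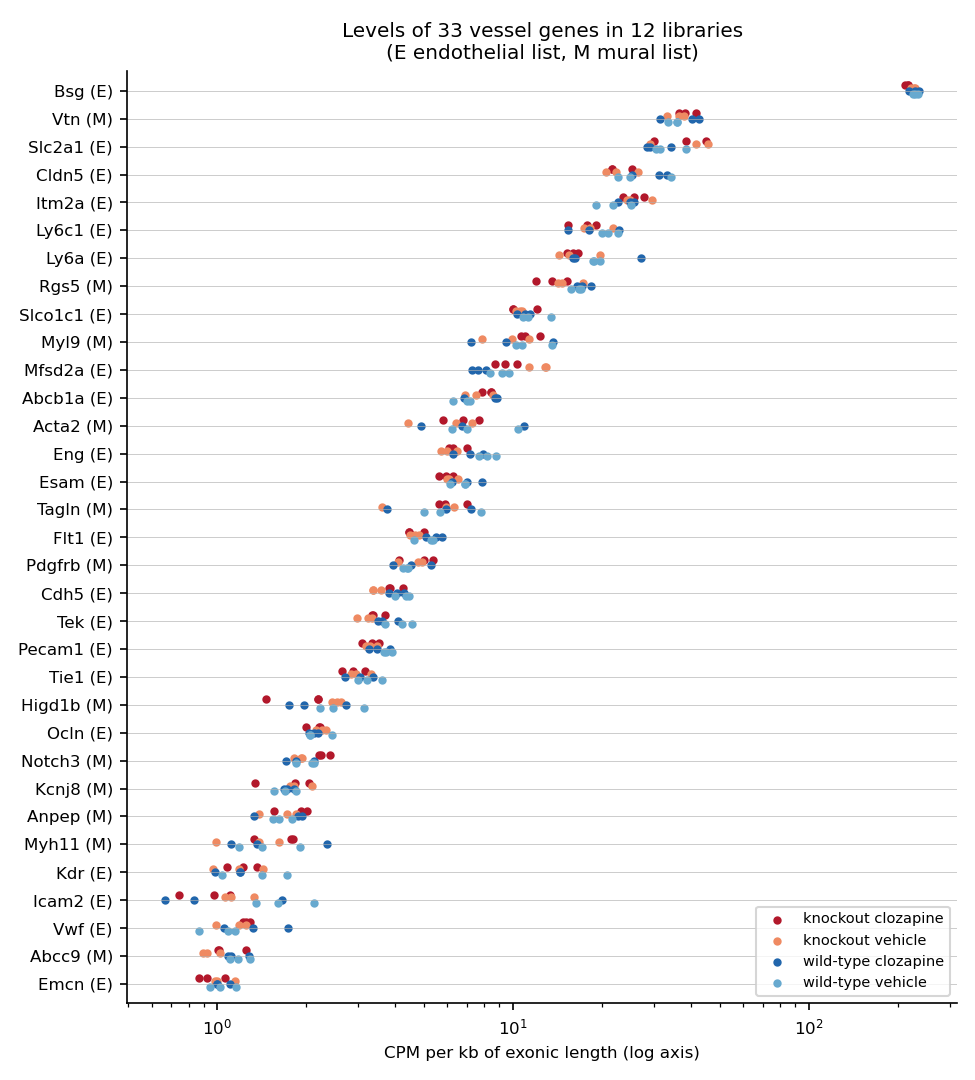
Levels of the 33 vessel genes in CPM per kilobase of exonic length (log axis), 1 point per library and 1 colour per group (knockout as labelled), genes ordered by their mean over 12 libraries. Bsg stands at 212 to 237 CPM per kb, and Emcn, Abcc9, Vwf, Icam2 and Kdr have the lowest means, from 1.02 to 1.23 CPM per kb.

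Under vehicle, 4 of the 33 vessel genes differed between labelled knockout and wild type, all of them endothelial. The barrier lipid transporter Mfsd2a rose by 0.44 on the log2 scale, a 1.36-fold higher level. The TGF-beta co-receptor Eng, the angiopoietin receptor Tek and the adherens junction cadherin Cdh5 fell, to 0.737, 0.771 and 0.805 of the wild-type level. The 4 are 12.1% of the members, against 9.16% of all tested genes that passed in this comparison. The 1 that rose is 3.03% of members, against 4.01% of all genes, and the 3 that fell are 9.09%, against 5.15%. None of the 12 mural genes passed.

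Mfsd2a carries lysophospholipids with docosahexaenoic acid into the brain and holds down vesicle traffic across the endothelium. It was at 25.5, 28.9 and 29.0 CPM in labelled-knockout vehicle libraries, against 18.8, 20.7 and 21.9 CPM in wild-type vehicle libraries. All 3 libraries labelled knockout lay above all 3 wild-type ones. The log2 difference was 0.44 (SE 0.08, 95% interval 0.27 to 0.62), with an adjusted p of 0.0035 in edgeR's quasi-likelihood test. Without wild-type vehicle library 3 it was 0.45 (adjusted p = 0.018), and the call held in 12 of 12 fits that each left out 1 library.

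Eng encodes endoglin, a co-receptor through which endothelial cells receive BMP and TGF-beta signals. It was at 24.2, 26.2 and 23.2 CPM in labelled-knockout vehicle libraries, against 35.5, 33.2 and 31.1 CPM in wild-type vehicle libraries. The groups did not overlap, and the highest library labelled knockout lay below the lowest wild-type one. Eng had a log2 difference of -0.44 (SE 0.08, 95% interval -0.62 to -0.26, adjusted p = 0.0048). It was -0.44 without wild-type vehicle library 3 (adjusted p = 0.024) and held in 12 of 12 fits with 1 library left out.

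Tek, the receptor of angiopoietins also called Tie2, was at 15.3, 14.0 and 15.7 CPM in labelled-knockout vehicle libraries, against 21.4, 19.8 and 17.4 CPM in wild-type vehicle libraries. Again no library overlapped, with wild-type libraries 1 and 3 standing highest. Tek had a log2 difference of -0.37 (SE 0.09, 95% interval -0.56 to -0.19, adjusted p = 0.016). The call was lost without labelled-knockout vehicle library 4 or without wild-type vehicle library 1 or 3, with adjusted p of 0.051 to 0.076 and log2 differences of -0.30 to -0.36.

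Cdh5 encodes VE-cadherin, which holds endothelial cells together at adherens junctions. It was at 15.1, 14.1 and 14.1 CPM in labelled-knockout vehicle libraries, against 18.3, 18.7 and 16.8 CPM in wild-type vehicle libraries. Each library labelled knockout was below each wild-type one. Cdh5 had a log2 difference of -0.31 (SE 0.08, 95% interval -0.47 to -0.15, adjusted p = 0.019). The call was lost without labelled-knockout vehicle library 5 or wild-type vehicle library 1 or 3, where the adjusted p was 0.061 to 0.087. Without wild-type vehicle library 3, 2 members passed, Mfsd2a and Eng.

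In GRCm38 coordinates Mfsd2a (ENSMUSG00000028655) lies at chr4:122946850-122961188 on the minus strand, Eng (ENSMUSG00000026814) at chr2:32646595-32682669 on the plus strand and Tek (ENSMUSG00000006386) at chr4:94739289-94874976 on the plus strand. Cdh5 (ENSMUSG00000031871) lies at chr8:104101625-104144511 on the plus strand, Flt1 (ENSMUSG00000029648) at chr5:147561604-147726011 on the minus strand and Rgs5 (ENSMUSG00000026678) at chr1:169655501-169695813 on the plus strand. Promoter windows from RefSeq on GRCm38.p6, from 250 bases before to 50 after the annotated start, were found for 22 of the 33 members. The windows of 4 endothelial genes that passed the test in a comparison, 1 that rose and 3 that fell, are shown 5′ to 3′ on the gene's own strand. Capitals mark GGAA or its reverse complement TTCC, the core letters bound by ETS factors, a family known for driving endothelial genes.
Mfsd2a, chr4:122961139-122961438: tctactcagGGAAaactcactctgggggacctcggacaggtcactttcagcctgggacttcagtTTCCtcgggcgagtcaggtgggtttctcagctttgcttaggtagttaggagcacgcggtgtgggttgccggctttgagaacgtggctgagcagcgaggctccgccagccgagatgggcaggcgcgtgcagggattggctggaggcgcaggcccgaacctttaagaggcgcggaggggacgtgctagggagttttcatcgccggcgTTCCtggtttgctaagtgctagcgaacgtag
Eng, chr2:32646345-32646644: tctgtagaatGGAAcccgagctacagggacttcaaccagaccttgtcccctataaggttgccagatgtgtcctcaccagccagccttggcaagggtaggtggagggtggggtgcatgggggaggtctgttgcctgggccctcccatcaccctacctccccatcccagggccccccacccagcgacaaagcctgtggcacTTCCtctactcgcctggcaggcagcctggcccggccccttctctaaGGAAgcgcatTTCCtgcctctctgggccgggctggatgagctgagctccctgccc
Tek, chr4:94739039-94739338: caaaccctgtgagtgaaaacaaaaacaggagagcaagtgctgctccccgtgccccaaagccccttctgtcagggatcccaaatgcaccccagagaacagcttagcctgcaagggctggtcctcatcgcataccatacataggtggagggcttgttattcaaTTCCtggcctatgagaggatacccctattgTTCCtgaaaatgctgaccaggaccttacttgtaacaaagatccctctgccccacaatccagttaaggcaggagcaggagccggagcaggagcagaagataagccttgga
Flt1, chr5:147725962-147726261: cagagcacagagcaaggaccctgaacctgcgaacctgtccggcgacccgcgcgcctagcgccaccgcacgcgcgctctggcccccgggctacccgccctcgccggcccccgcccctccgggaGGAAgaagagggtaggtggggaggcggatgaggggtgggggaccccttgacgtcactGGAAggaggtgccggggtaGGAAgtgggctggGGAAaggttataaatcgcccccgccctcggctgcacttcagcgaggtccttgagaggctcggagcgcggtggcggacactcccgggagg
The letters occur 3 times in the Mfsd2a window, 4 times in that of Eng, 2 times in that of Tek and 4 times in that of Flt1. Among all 32851 promoter windows of that length 96.0% hold at least 1 match on either strand, with a median of 3. The longer form CCGGAA, searched on both strands and overlapping the shorter one, was in 2 of the 24 windows of members (those of Kdr and Ocln) and in 14.9% of all windows. The Flt1 window also holds TATAAA, present in 13.6% of all windows. The gene that rose and the 3 that fell thus shared the core letters, as nearly all promoters did.

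**Figure D2:**
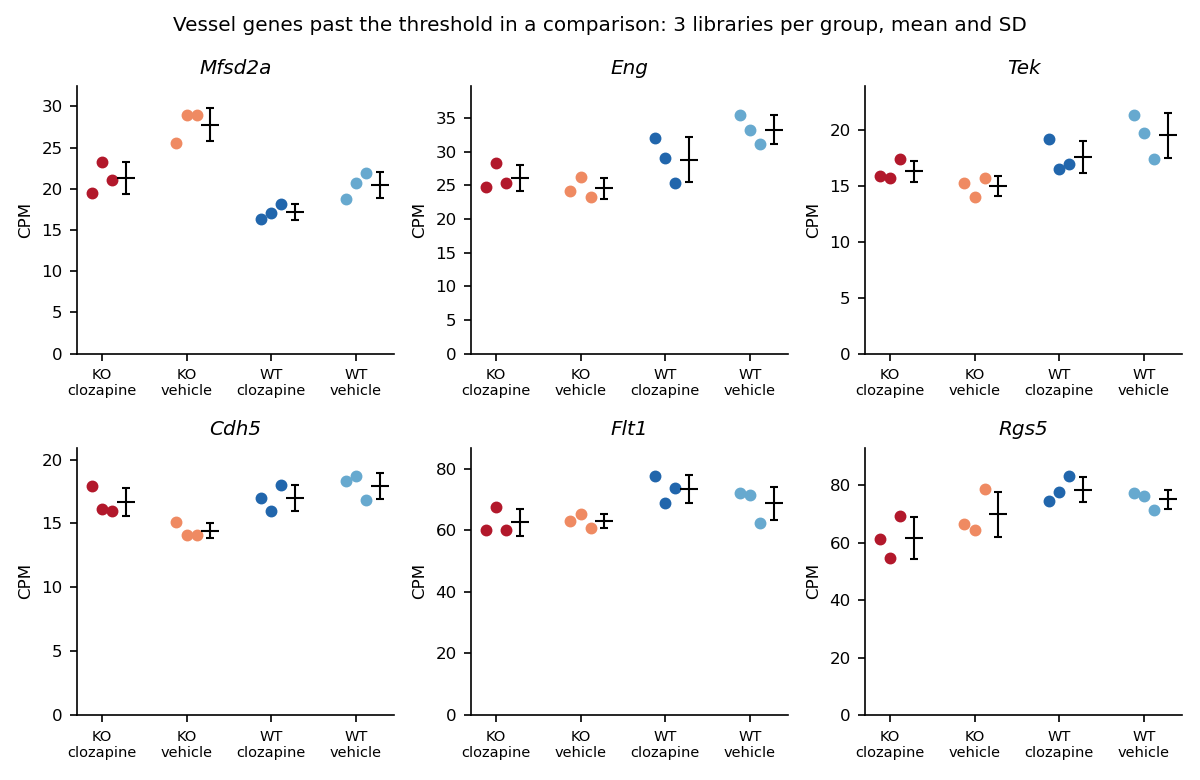
CPM of the 6 vessel genes past the threshold in at least 1 comparison, 1 point per library, with the mean and SD of the 3 libraries of each group to the right of its points (KO is the labelled knockout, WT wild type). Under vehicle, Mfsd2a averages 27.8 CPM in KO and 20.4 CPM in WT, and Eng 24.5 CPM in KO and 33.3 CPM in WT.

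Other vessel genes in the vehicle comparison moved less or varied more. The pericyte gene Abcc9, a sulfonylurea receptor subunit of potassium channels, was at 8.53, 7.71 and 7.51 CPM in labelled-knockout vehicle libraries, against 9.88, 9.26 and 10.8 CPM in wild-type vehicle libraries. Its libraries did not overlap, but it did not pass (log2 difference -0.34, 95% interval -0.57 to -0.10, adjusted p = 0.066; -0.39 and 0.092 without wild-type vehicle library 3). Pecam1, an adhesion molecule of endothelial cells, was at 19.8, 20.4 and 21.6 CPM in labelled-knockout vehicle libraries, against 24.2, 23.2 and 22.8 CPM in wild-type vehicle libraries. It too lay apart without passing (log2 difference -0.18, 95% interval -0.34 to -0.03, adjusted p = 0.143; -0.19 and 0.242 without that library). In all, 8 members had no overlap between these groups, 24.2% of members against 27.3% of all tested genes (13.2% higher and 14.1% lower). Besides the 4 that passed and Abcc9 and Pecam1, they were Icam2 and the hormone and anion transporter Slco1c1, and of the 8 all but Mfsd2a were lower in the labelled knockout. The median log2 difference of the 33 was -0.11, with 10 above and 23 below 0, against a median of 0.0 over all tested genes. The same 8 members had no overlap without wild-type vehicle library 3, against 34.1% of all tested genes, and the median of the 33 was -0.09.

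The counts by role stand beside the 9.16% of all tested genes that passed. All 5 endothelial receptors (Flt1, Kdr, Tek, Tie1 and Eng) had log2 differences below 0 under vehicle, with a median of -0.23, and 2 of them passed. Of the 6 junction and adhesion genes 5 lay below 0, with a median of -0.21 and 1 passing. Of the 4 transporters 3 lay above 0, with a median of 0.19 and 1 passing. The 6 other endothelial genes, the 8 pericyte genes and the 4 smooth muscle genes had medians of -0.01, -0.02 and -0.23 with none passing. Differences between these small groups of genes were not tested. The medians without wild-type vehicle library 3 were -0.22 for receptors, -0.24 for junction and adhesion genes, 0.14 for transporters, -0.05 for other endothelial genes, -0.01 for pericyte genes and -0.06 for smooth muscle genes, and 3.52% of all tested genes passed.

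The 21 endothelial genes summed to 979 to 1060 CPM in labelled-knockout vehicle libraries, against 1010 to 1050 CPM in wild-type vehicle libraries. The 5 receptors summed to 125 to 130 CPM in labelled-knockout vehicle libraries, against 135 to 163 CPM in wild-type vehicle libraries, without overlap. Under clozapine the receptor sums overlapped, at 126 to 137 CPM in the labelled knockout against 136 to 155 CPM in wild type. The sums of each other role overlapped under vehicle, those of junction and adhesion genes at 92.1 to 103 CPM against 101 to 125 CPM. The 12 mural genes summed to 238 to 270 CPM in labelled-knockout vehicle libraries, against 253 to 282 CPM in wild-type vehicle libraries. The wild-type sums without vehicle library 3 were 1030 to 1050 CPM for endothelial genes, 135 to 163 CPM for receptors and 253 to 259 CPM for mural genes. The sums of the endothelial and mural lists thus overlapped between genotypes under vehicle, and those of the receptors lay apart. Bsg, expressed well beyond vessels, gave 401 to 414 CPM of the endothelial sum in labelled-knockout vehicle libraries. The markers Cldn5, Pecam1, Cdh5, Flt1, Tek and Tie1, a list chosen with earlier results of these data known, were also summed. They had 157 to 165 CPM in those libraries, against 166 to 202 CPM in wild-type vehicle libraries. Under clozapine they had 162 to 165 CPM in the labelled knockout, against 171 to 197 CPM in wild type. These sums lay apart in both treatments, narrowly under vehicle, but they describe these 6 genes only. All 6 had log2 differences below 0 under both treatments. Of the 21 endothelial genes, 7 lay above 0 under vehicle and 6 under clozapine, and the markers summed here include none of those. Flt1 and Cldn5 weighed most, with means of 63.0 and 32.8 CPM in labelled-knockout vehicle libraries. Under clozapine the sums of all 21 overlapped, at 955 to 1010 CPM against 948 to 1070 CPM.

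**Figure D3:**
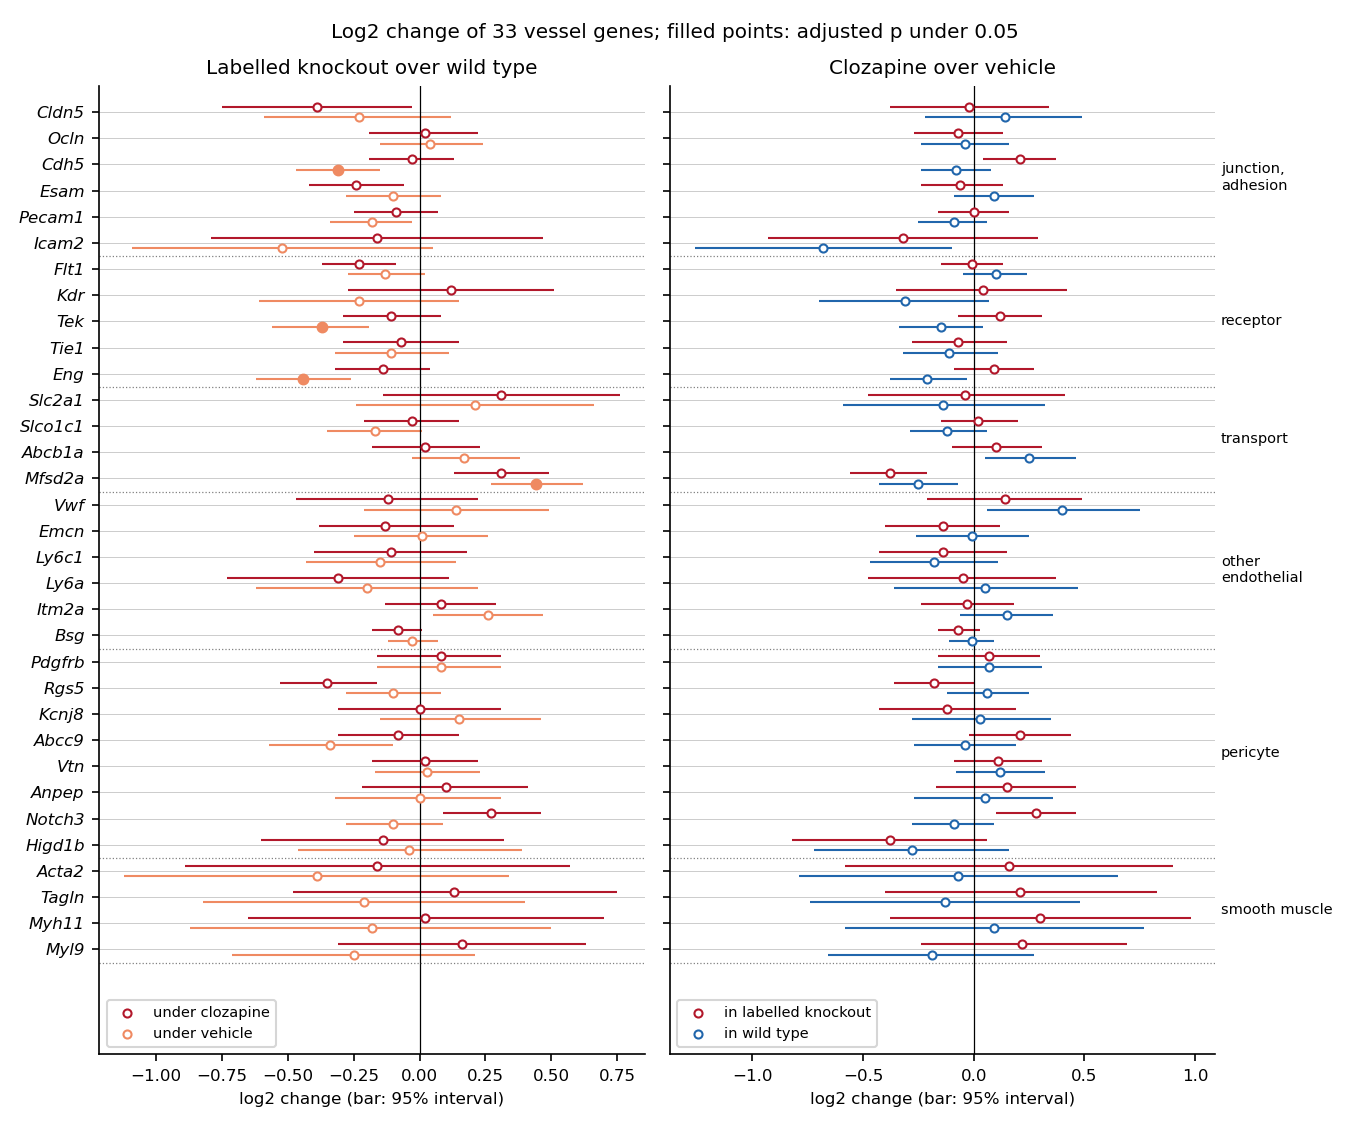
Log2 change of each of the 33 vessel genes with its 95% interval, labelled knockout over wild type (left) and clozapine over vehicle (right). Points are filled where the adjusted p is under 0.05: under vehicle these are Mfsd2a at 0.44, Eng at -0.44, Tek at -0.37 and Cdh5 at -0.31, and no point is filled in the other 3 comparisons.

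Under clozapine, no vessel gene passed between labelled knockout and wild type in edgeR, where 2.0% of all tested genes did. DESeq2 called 2 members, Rgs5 (adjusted p = 0.0088) and Mfsd2a (adjusted p = 0.05, under the threshold before rounding), and 6 members (18.2%, against 15.9% of all tested genes) had an unadjusted p under 0.05 in edgeR. The groups did not overlap in 6 members, 18.2% of them against 22.5% of all tested genes: Mfsd2a and Notch3 were higher in the labelled knockout, and Cldn5, Flt1, Bsg and Rgs5 lower, against 11.8% of all tested genes higher and 10.7% lower. The median log2 difference of the 33 was -0.07. The excitatory neuron markers lay apart between the same groups, summing to 6360 to 6470 CPM in labelled-knockout clozapine libraries, against 5350 to 5490 CPM in wild-type clozapine libraries, and their part in these results was not tested.

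Rgs5, a regulator of G protein signalling that marks pericytes, had the smallest p here. It was at 61.4, 54.6 and 69.2 CPM in labelled-knockout clozapine libraries, against 74.6, 77.7 and 83.2 CPM in wild-type clozapine libraries. All libraries labelled knockout lay below the wild-type ones. Rgs5 had a log2 difference of -0.35 (SE 0.09, 95% interval -0.53 to -0.16), with an adjusted p of 0.051. The test passed without labelled-knockout clozapine library 5 (log2 -0.44, adjusted p = 0.028) or without labelled-knockout vehicle library 4 or 5 (adjusted p = 0.046 and 0.021).

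Mfsd2a was at 19.5, 23.3 and 21.1 CPM in labelled-knockout clozapine libraries, against 16.3, 17.1 and 18.2 CPM in wild-type clozapine libraries. As under vehicle, each library labelled knockout was above each wild-type one. The log2 difference was 0.31 (95% interval 0.13 to 0.49, adjusted p = 0.069). Notch3, the Notch receptor of pericytes and smooth muscle cells, was at 17.9, 18.2 and 19.4 CPM in labelled-knockout clozapine libraries, against 17.2, 13.8 and 14.9 CPM in wild-type clozapine libraries. Its groups also lay apart (log2 difference 0.27, 95% interval 0.09 to 0.46), without passing (adjusted p = 0.116). It passed without wild-type clozapine library 2, at a log2 difference of 0.37 and an adjusted p of 0.045. Exons of an antisense gene, Gm17276, cover 6.0% of those of Notch3, and whether counting used strand is not stated.

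The 3 endothelial genes that were lower under vehicle were closer between genotypes under clozapine. They were picked by their vehicle difference, so a smaller difference under clozapine cannot by itself show a change. The interaction below uses the same vehicle libraries. Eng was at 24.7, 28.3 and 25.4 CPM in labelled-knockout clozapine libraries, against 32.1, 29.0 and 25.4 CPM in wild-type clozapine libraries. Tek was at 15.9, 15.7 and 17.4 CPM in labelled-knockout clozapine libraries, against 19.2, 16.5 and 17.0 CPM in wild-type clozapine libraries. Cdh5 was at 17.9, 16.1 and 16.0 CPM in labelled-knockout clozapine libraries, against 17.0, 16.0 and 18.0 CPM in wild-type clozapine libraries. The groups overlapped in all 3 genes, and the log2 differences were -0.14 for Eng, -0.11 for Tek and -0.03 for Cdh5 (adjusted p = 0.447, 0.613 and 0.899). Whether the genotype difference itself changed with clozapine was tested by the interaction, in which the wild-type response to clozapine is subtracted from the labelled-knockout response. It was 0.30 for Eng (95% interval 0.04 to 0.55, adjusted p = 0.29), 0.27 for Tek (0.00 to 0.53, adjusted p = 0.362) and 0.28 for Cdh5 (0.06 to 0.51, adjusted p = 0.261). Without wild-type vehicle library 3 it was 0.30, 0.26 and 0.25 for Eng, Tek and Cdh5 (adjusted p = 0.388, 0.48 and 0.40). None of the 33 members passed the interaction in edgeR or in DESeq2, 4 (12.1%, against 13.6% of all tested genes) had an unadjusted p under 0.05 (these 3 and Notch3), and 0.654% of all tested genes passed. Notch3 had the smallest p, with an interaction of 0.37 on the log2 scale (95% interval 0.11 to 0.63, adjusted p = 0.192). A change of the genotype difference with clozapine was therefore not detectable in any member.

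Averaged over treatments, 5 of the 33 vessel genes differed between labelled knockout and wild type, 15.2% against 10.5% of all tested genes. Mfsd2a rose, 3.03% of members against 5.52% of all genes. Eng, Tek, the VEGF receptor Flt1 and the pericyte gene Rgs5 fell, 12.1% of members against 5.01% of all genes. These values use the same libraries as the comparisons within treatments and are no separate evidence. Over the 6 libraries labelled knockout and the 6 wild-type ones no member was free of overlap, against 4.04% of all tested genes.

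Mfsd2a had a lowest, median and highest value of 19.5, 24.4 and 29.0 CPM in the 6 libraries labelled knockout, against 16.3, 18.5 and 21.9 CPM in the 6 wild-type libraries. The overlap came from labelled-knockout clozapine libraries and wild-type vehicle libraries, which differ in treatment. Its log2 difference was 0.38 (SE 0.06, 95% interval 0.25 to 0.50, adjusted p = 0.00081). Eng had a lowest, median and highest value of 23.2, 25.0 and 28.3 CPM in libraries labelled knockout, against 25.4, 31.6 and 35.5 CPM in wild-type libraries. Its log2 difference was -0.29 (95% interval -0.42 to -0.16, adjusted p = 0.0058). Both calls held in 12 of 12 fits that each left out 1 library, and without wild-type vehicle library 3 the differences were 0.38 for Mfsd2a (adjusted p = 0.0031) and -0.29 for Eng (adjusted p = 0.016).

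Flt1, the VEGF receptor that also exists as a soluble decoy, was at 60.0, 67.6 and 60.2 CPM in labelled-knockout clozapine libraries and 63.0, 65.2 and 60.8 CPM in labelled-knockout vehicle libraries, against 77.6, 68.8 and 73.9 CPM in wild-type clozapine libraries and 72.2, 71.5 and 62.5 CPM in wild-type vehicle libraries. Under clozapine the genotypes lay apart, while under vehicle wild-type library 4 fell among the libraries labelled knockout. The averaged log2 difference was -0.18 (SE 0.05, 95% interval -0.28 to -0.08, adjusted p = 0.025). It did not pass in 7 of 12 fits with 1 library left out (adjusted p of 0.054 to 0.073), those without labelled-knockout clozapine library 3 or 5, labelled-knockout vehicle library 2 or 5, wild-type clozapine library 2, or wild-type vehicle library 1 or 3. It did not pass after correcting for GC content and gene length either (log2 -0.13, adjusted p = 0.088).

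Tek, with the values given above, had an averaged log2 difference of -0.24 (95% interval -0.37 to -0.11, adjusted p = 0.021). The call was lost in 5 of 12 such fits, without labelled-knockout clozapine library 3 or 4, wild-type clozapine library 2, or wild-type vehicle library 1 or 3 (adjusted p of 0.052 to 0.063). Rgs5 was at 66.5, 64.4 and 78.7 CPM in labelled-knockout vehicle libraries, against 77.5, 76.3 and 71.5 CPM in wild-type vehicle libraries, where the highest library was one labelled knockout. Its averaged log2 difference was -0.22 (95% interval -0.35 to -0.10, adjusted p = 0.028). The call was lost in 8 of 12 fits, without labelled-knockout clozapine library 3 or 4, labelled-knockout vehicle library 2 or 4, wild-type clozapine library 3 or 5, or wild-type vehicle library 1 or 3 (adjusted p of 0.054 to 0.08). Of all members, 2 passed without wild-type vehicle library 3, and 3 passed without labelled-knockout clozapine library 3, labelled-knockout vehicle library 2, wild-type clozapine library 2 or wild-type vehicle library 1. The averaged shares of all tested genes in those fits are not given here.

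Chronic clozapine had few detectable effects on the vessel genes. The excitatory neuron sums given above lay apart between clozapine and vehicle in both genotypes, higher with clozapine in the labelled knockout and lower with it in wild type, and their part in these results was not tested. In the labelled knockout no member passed in edgeR, where 0.0231% of all tested genes did, 3 (9.09%, against 12.2%) had an unadjusted p under 0.05, and DESeq2 called 1, Mfsd2a. In wild type no member passed in edgeR or in DESeq2, 5 (15.2%, against 11.6%) had an unadjusted p under 0.05, and 0.816% of all tested genes passed in edgeR. The 5 were Abcb1a and Vwf, higher with clozapine (log2 0.25 and 0.4), and Icam2, Eng and Mfsd2a, lower with it (-0.68, -0.21 and -0.25). Averaged over genotypes 1 of 33 passed, 3.03% against 0.15% of all tested genes: Mfsd2a fell by 0.32 on the log2 scale, to 0.803 of the vehicle level. The fall covers 3.03% of members, against 0.0521% of all genes.

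Mfsd2a was at 19.5, 23.3 and 21.1 CPM in labelled-knockout clozapine libraries, against 25.5, 28.9 and 29.0 CPM in labelled-knockout vehicle libraries, and at 16.3, 17.1 and 18.2 CPM in wild-type clozapine libraries, against 18.8, 20.7 and 21.9 CPM in wild-type vehicle libraries. In each genotype all 3 clozapine libraries lay below all 3 vehicle libraries. The log2 difference was -0.38 in the labelled knockout (95% interval -0.56 to -0.21, adjusted p = 0.08), -0.25 in wild type (-0.43 to -0.07, adjusted p = 0.211) and -0.32 averaged (SE 0.06, -0.44 to -0.19, adjusted p = 0.044). The interaction was -0.13 (95% interval -0.38 to 0.11, adjusted p = 0.68), so a difference between the genotypes' responses was not detectable. The averaged call held in 1 of 12 fits with 1 library left out, that without wild-type vehicle library 1. Leaving out any other library gave adjusted p of 0.052 to 0.12, with log2 differences of -0.29 to -0.35 over all 12 fits.

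In wild type Mfsd2a was the only member whose clozapine and vehicle libraries did not overlap, 3.03% of members against 15.6% of all tested genes, of which 8.23% were lower with clozapine. In the labelled knockout there were 5 such members, 15.2% against 18.7% of all tested genes: Cdh5 and Notch3 were higher with clozapine, and Mfsd2a, Bsg and Higd1b lower, against 9.72% of all tested genes higher and 8.97% lower. Notch3 was at 17.9, 18.2 and 19.4 CPM in labelled-knockout clozapine libraries, against 14.7, 15.5 and 15.6 CPM in labelled-knockout vehicle libraries. Its log2 difference of 0.28 (95% interval 0.10 to 0.46) did not pass (adjusted p = 0.182). In wild type it was at 17.2, 13.8 and 14.9 CPM in clozapine libraries, against 17.2, 16.9 and 14.9 CPM in vehicle libraries, which overlapped. Icam2, an adhesion molecule with few counts, passed in wild type only when wild-type clozapine library 2 was left out (log2 -1.17, adjusted p = 0.036; -0.68 and 0.325 with all libraries). The median log2 change of the 33 was -0.04 in wild type, with 13 above and 20 below 0.

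Of the genes that define the cell classes, Cldn5, Slc2a1, Pdgfrb, Pecam1 and Acta2 passed in no comparison in edgeR. Cldn5, the main claudin of brain endothelial tight junctions, was at 35.7, 30.7 and 30.7 CPM in labelled-knockout clozapine libraries and 37.6, 29.2 and 31.6 CPM in labelled-knockout vehicle libraries, against 44.2, 35.9 and 47.1 CPM in wild-type clozapine libraries and 48.5, 35.3 and 32.0 CPM in wild-type vehicle libraries. Under clozapine the genotypes lay narrowly apart and under vehicle they overlapped, and the averaged log2 difference of -0.31 did not pass (95% interval -0.56 to -0.06, adjusted p = 0.117; DESeq2 0.02). Slc2a1, the glucose transporter of the barrier, was at 105, 157 and 135 CPM in labelled-knockout clozapine libraries and 102, 146 and 160 CPM in labelled-knockout vehicle libraries, against 99.2, 102 and 120 CPM in wild-type clozapine libraries and 107, 110 and 135 CPM in wild-type vehicle libraries. The genotypes overlapped under both treatments, and the averaged log2 difference of 0.26 did not pass (95% interval -0.06 to 0.57, adjusted p = 0.293). Exons of an antisense gene cover 3.0% of those of Slc2a1.

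Pdgfrb, the pericyte receptor of PDGF-B, was at 29.3, 22.6 and 27.5 CPM in labelled-knockout clozapine libraries and 27.0, 22.4 and 26.1 CPM in labelled-knockout vehicle libraries, against 29.0, 21.5 and 24.8 CPM in wild-type clozapine libraries and 24.2, 24.1 and 23.3 CPM in wild-type vehicle libraries. The genotypes overlapped under both treatments, and the averaged genotype difference was 0.08 on the log2 scale (95% interval -0.09 to 0.24, adjusted p = 0.59). Pecam1 under clozapine was at 19.2, 20.8 and 21.9 CPM in libraries labelled knockout, against 24.0, 20.3 and 21.6 CPM in wild-type libraries, with overlap.

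The 4 smooth muscle genes varied widely between libraries of 1 group. Acta2, smooth muscle actin, was at 12.7, 16.8 and 14.9 CPM in labelled-knockout clozapine libraries and 9.71, 16.0 and 14.1 CPM in labelled-knockout vehicle libraries, against 24.0, 10.7 and 14.8 CPM in wild-type clozapine libraries and 15.3, 22.9 and 13.7 CPM in wild-type vehicle libraries. The values within wild-type clozapine alone span nearly the whole range of the gene. Its log2 difference between genotypes under vehicle was -0.39 with a 95% interval of -1.12 to 0.34. Tagln (transgelin), Myh11 (smooth muscle myosin) and Myl9 (a myosin light chain) went with Acta2 across libraries: wild-type clozapine library 2 and wild-type vehicle library 3 ranked first and second of the 12 in each of the 4 genes, in either order. Labelled-knockout vehicle library 2 and wild-type clozapine library 3 were the lowest pair in all 4. Summed, the 4 genes had 46.3 to 57.2 CPM in labelled-knockout clozapine libraries and 33.5 to 51.6 CPM in labelled-knockout vehicle libraries, against 35.0 to 72.0 CPM in wild-type clozapine libraries and 45.2 to 68.7 CPM in wild-type vehicle libraries. Exons of the antisense gene Gm48529 cover 62.4% of those of Tagln, so its value may hold reads of both.

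**Figure D4:**
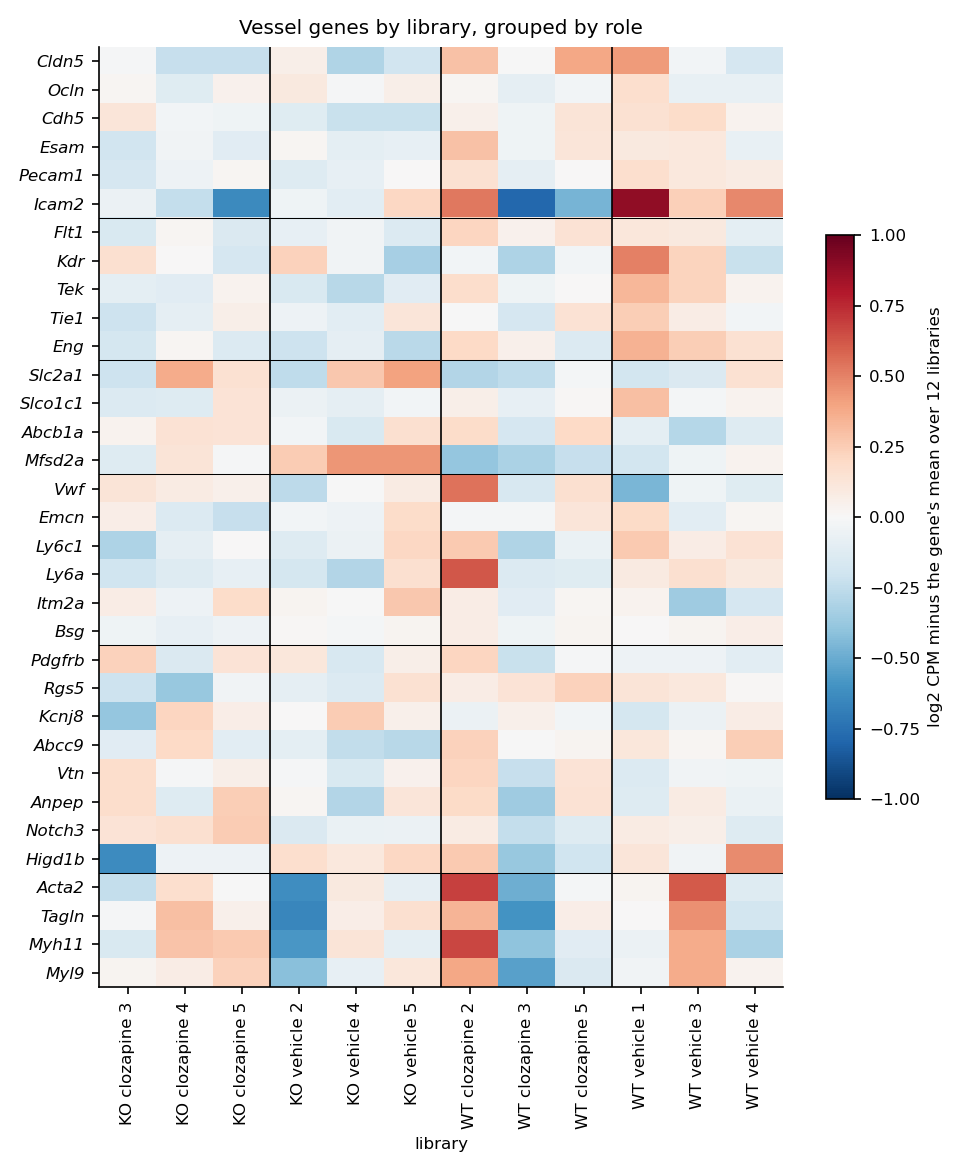
Log2 CPM of each vessel gene in each library minus the gene's mean over the 12 libraries (rows grouped by role, columns by group; KO as labelled). The 4 smooth muscle genes at the bottom are high together in WT clozapine 2 and WT vehicle 3 and low together in KO vehicle 2 and WT clozapine 3, and Mfsd2a is highest in the KO vehicle libraries.

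The libraries also differed across the endothelial genes. Of the 21, 10 had their highest value in wild-type vehicle library 1 and 6 in wild-type clozapine library 2, while 6 had their lowest in labelled-knockout clozapine library 3. Of the 12 mural genes 4 were highest in wild-type clozapine library 2 and 5 lowest in wild-type clozapine library 3. Ly6a and Ly6c1, surface antigens of endothelial cells, belong to a family of related genes. How reads shared between genes were counted is not given, so the values of both are uncertain. Ly6a reached 32.6 CPM in wild-type clozapine library 2 against 17.3 to 23.7 CPM in the other libraries.

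The members not yet given by library passed in no comparison. Among the junction genes, Ocln (occludin) ranged over 8.42 to 10.3 CPM in the 12 libraries, Esam over 16.1 to 22.5 CPM and Icam2 over 1.27 to 4.05 CPM. Among the receptors, Kdr, the main signalling receptor of VEGF, ranged over 8.72 to 15.6 CPM, and Tie1, the partner of Tek, reached at most 17.8 CPM. The transporters Slco1c1 and Abcb1a ranged over 51.7 to 69.9 and 34.4 to 48.3 CPM. Neither transporter's interval in the comparison of genotypes under vehicle or under clozapine lay wholly on one side of 0. The other endothelial genes were Vwf (von Willebrand factor) at 13.9 to 27.8 CPM, the sialomucin Emcn at 4.68 to 6.27 CPM, Ly6c1 at 25.7 to 38.2 CPM, Itm2a at 33.3 to 51.4 CPM and Bsg at 385 to 429 CPM. Itm2a was at 43.5, 42.5 and 51.4 CPM in labelled-knockout vehicle libraries, against 43.8, 33.3 and 38.0 CPM in wild-type vehicle libraries. It overlapped and did not pass (log2 difference 0.26, adjusted p = 0.122), but passed without wild-type vehicle library 1 (log2 0.37, adjusted p = 0.041), and was at 0.16 without library 3 (adjusted p = 0.396). The other pericyte genes were Vtn at 63.7 to 86.7 CPM, the aminopeptidase Anpep at 5.49 to 8.32 CPM, the potassium channel Kcnj8 at 3.42 to 5.35 CPM and Higd1b at 1.24 to 2.66 CPM. Over all 33 members, Bsg varied least, with a highest library 1.11 times the lowest, and Icam2 most, at 3.20 times. Exons of Gm42686 on the opposite strand cover 10.1% of those of the drug efflux pump Abcb1a, those of 5330439B14Rik 1.9% of those of Abcc9, and those of Fpgs 1.5% of those of Eng.

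Around the members, genes of the same pathways were counted from 7 lists. The lists, like the members, were chosen with earlier results of these data known. In VEGF and angiopoietin signalling 16 of 17 genes were tested and 3 passed under vehicle, where 9.16% of all tested genes did: Pgf and Angpt1 rose and Apln fell. Pgf, placental growth factor and a ligand of Flt1, was at 2.41, 2.16 and 2.46 CPM in labelled-knockout vehicle libraries, against 1.48, 1.15 and 1.23 CPM in wild-type vehicle libraries, without overlap (log2 difference 0.87, SE 0.20, adjusted p = 0.014). Without wild-type vehicle library 3 its adjusted p was 0.075. Angpt1, the angiopoietin that activates Tek, was at 3.26, 4.11 and 4.53 CPM in labelled-knockout vehicle libraries, against 2.74, 1.81 and 2.46 CPM in wild-type vehicle libraries, likewise without overlap (log2 difference 0.77, SE 0.20, adjusted p = 0.027). It did not pass without labelled-knockout vehicle library 4 or 5 or wild-type vehicle library 3 (adjusted p of 0.059 to 0.14). Ligand and receptor thus differed in opposite directions under vehicle, Angpt1 higher and Tek lower in the labelled knockout. Averaged over treatments Angpt1 was higher by 0.56 (adjusted p = 0.02), a call lost without labelled-knockout clozapine library 3 or 5, wild-type clozapine library 3 or wild-type vehicle library 3 (adjusted p of 0.051 to 0.06).

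Apln, the peptide ligand apelin, was at 33.3, 30.0 and 33.7 CPM in labelled-knockout vehicle libraries, against 42.6, 42.1 and 39.4 CPM in wild-type vehicle libraries. Every library labelled knockout lay below every wild-type one. The log2 difference was -0.35 (adjusted p = 0.03), a call lost without any 1 of the 3 labelled-knockout vehicle libraries or wild-type vehicle library 1 or 3 (adjusted p of 0.057 to 0.11). Averaged over treatments it was -0.29 (adjusted p = 0.013), and this held in 12 of 12 fits with 1 library left out. Under clozapine, in the interaction and for clozapine against vehicle in either genotype or averaged, none of the 16 tested genes passed in edgeR or in DESeq2. An unadjusted p under 0.05 was reached by 5 for clozapine in the labelled knockout, against 12.2% of all tested genes, and by 2 in wild type, against 11.6%. It was reached by 3 between genotypes under clozapine, against 15.9%, and by 1 in the interaction, against 13.6%. For clozapine averaged it was 5, where the share of all tested genes is not given here.

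The basement membrane that endothelial cells and pericytes share had 12 genes, all tested. Col4a1, a collagen IV chain, was at 37.4, 47.7 and 42.6 CPM in labelled-knockout vehicle libraries, against 51.5, 58.7 and 51.0 CPM in wild-type vehicle libraries, and at 32.9, 39.7 and 39.3 CPM in labelled-knockout clozapine libraries, against 47.6, 49.5 and 50.2 CPM in wild-type clozapine libraries. In both treatments the libraries labelled knockout lay below the wild-type ones. Col4a1 differed by -0.34 under vehicle (adjusted p = 0.027), -0.40 under clozapine (adjusted p = 0.034) and -0.37 averaged (95% interval -0.50 to -0.23, adjusted p = 0.0018). The averaged call held in 12 of 12 fits with 1 library left out. The vehicle call was lost without labelled-knockout vehicle library 2 or 5 or wild-type vehicle library 1 or 3 (adjusted p of 0.053 to 0.13). The clozapine call was lost without labelled-knockout clozapine library 3 or 5 or any 1 wild-type clozapine library (adjusted p of 0.059 to 0.17).

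Its partner chain Col4a2 was lower by the averaged test (log2 -0.41, adjusted p = 0.02), with 52.3 ± 8.61 CPM in labelled-knockout clozapine libraries and 62.8 ± 9.87 CPM in labelled-knockout vehicle libraries, against 70.4 ± 4.40 CPM in wild-type clozapine libraries and 81.7 ± 7.87 CPM in wild-type vehicle libraries (SD, n = 3 each). It was not past the threshold without labelled-knockout vehicle library 5, wild-type clozapine library 3 or wild-type vehicle library 3 (adjusted p of 0.05 to 0.056), or with no filter on low counts (0.062). The laminin chain Lamb1 rose instead, to 15.2 ± 2.96 CPM in labelled-knockout clozapine libraries and 14.4 ± 0.744 CPM in labelled-knockout vehicle libraries, against 10.9 ± 0.345 CPM in wild-type clozapine libraries and 12.1 ± 0.350 CPM in wild-type vehicle libraries (SD, n = 3 each). Its averaged log2 difference of 0.36 (adjusted p = 0.0079) held in 12 of 12 fits with 1 library left out. Under clozapine alone it was 0.47 (adjusted p = 0.038), lost without labelled-knockout clozapine library 3 or 5 or any 1 wild-type clozapine library (adjusted p of 0.085 to 0.21). Hspg2, the proteoglycan perlecan, fell under vehicle (log2 -0.53, adjusted p = 0.033), a call lost without any 1 of the labelled-knockout vehicle libraries or wild-type vehicle library 1 or 3 (adjusted p of 0.054 to 0.15) and with the length and GC correction (0.081). By count, 2 of the 12 fell and none rose under vehicle (5.15% and 4.01% of all tested genes), 1 fell and 1 rose under clozapine (2.0% of all tested genes passed in either direction), 2 fell and 1 rose by the averaged test (5.01% and 5.52% of all tested genes), and none passed for clozapine against vehicle or in the interaction. DESeq2 added Col4a2 under vehicle and under clozapine.

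Of 16 other transport and junction genes, all tested, 2 fell under vehicle, Lrp8 and Tjp1, where 5.15% of all tested genes fell. Lrp8, the apolipoprotein E and reelin receptor, is known mainly from neurons, and it was at 64.2, 75.9 and 59.5 CPM in labelled-knockout vehicle libraries, against 87.1, 98.8 and 82.0 CPM in wild-type vehicle libraries. These groups did not overlap (log2 difference -0.43, adjusted p = 0.0056), and the call held in 12 of 12 fits with 1 library left out. With clozapine it was at 64.7, 66.4 and 63.5 CPM in the labelled knockout and at 65.5, 71.9 and 64.5 CPM in wild type. In wild type it was lower with clozapine than with vehicle (log2 -0.41, adjusted p = 0.035), the 1 gene of the 7 lists that passed a clozapine comparison. That call was lost without labelled-knockout clozapine library 3 or 4, wild-type clozapine library 2 or 5, or wild-type vehicle library 1 or 3 (adjusted p of 0.053 to 0.15). Its interaction of 0.37 did not pass (adjusted p = 0.178).

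Tjp1, the junction scaffold ZO-1, fell by 0.23 on the log2 scale under vehicle (adjusted p = 0.018), a call lost without labelled-knockout vehicle library 5 or wild-type vehicle library 3 (adjusted p of 0.078 to 0.092). With DESeq2, 3 of the 16 passed under vehicle (Abcg2 besides these) and 1 for clozapine averaged over genotypes (Lrp8). By the averaged test the efflux pump Abcg2 rose (log2 0.29, adjusted p = 0.048), and 2 of the 16 fell (5.01% of all tested genes), Lrp8 (-0.24, adjusted p = 0.017) and Tjp1 (-0.13, adjusted p = 0.042). With 1 library left out, Lrp8 passed in 12 of 12 fits, Tjp1 in 4 and Abcg2 in 2.

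The other lists held fewer calls, beside 9.16% of all tested genes under vehicle and 10.5% by the averaged test. Of 12 endothelial transcription factors the Notch target Hey1 rose by the averaged test (log2 0.16, adjusted p = 0.029), in 6 of 12 fits with 1 library left out, and none passed in the other comparisons. Of 20 genes of smooth muscle contraction and pericytes 19 were tested, and Nos3 fell under vehicle (log2 -0.40, adjusted p = 0.047) and by the averaged test (-0.29, adjusted p = 0.044). Nos3 encodes the nitric oxide synthase of endothelial cells, which relaxes smooth muscle, and its calls held in 4 and 3 of 12 such fits. None of 13 genes of the Wnt pathway of the barrier and none of 13 genes of PDGF, TGF-beta and mural recruitment passed in any of the 7 comparisons in edgeR. Unadjusted p under 0.05 were reached by 0 to 6 of the Wnt genes and 0 to 2 of the PDGF and TGF-beta genes in a comparison. The highest Wnt counts were 6 in the averaged genotype comparison and 5 under vehicle. The share of all tested genes at that level is not given here for either, so these counts are not read further. Between genotypes under clozapine it was 2 of the 13 Wnt genes, against 15.9% of all tested genes. DESeq2 called 1 gene of these lists, the Wnt ligand gene Wnt7b in the averaged genotype comparison. In these lists the smallest p belonged to the Wnt receptor Fzd4 (labelled knockout against wild type under clozapine, log2 0.43, adjusted p = 0.128) and to Tgfbr1 (clozapine averaged over genotypes, log2 -0.16, adjusted p = 0.242).

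Markers of other cells near vessels were read beside these results. None of the markers of red blood cells (5), fibroblasts (8), perivascular macrophages (5), astrocytes (6), oligodendrocytes (4) or choroid plexus (5, of which 4 were tested) passed in any comparison in edgeR. At most 2 markers of any of these lists had an unadjusted p under 0.05 in a comparison, but the lists are short. For clozapine in wild type it was 2 of 5 red blood cell, 2 of 8 fibroblast and 1 of 4 choroid plexus markers, against 11.6% of all tested genes. For clozapine in the labelled knockout it was 2 of 8 fibroblast and 2 of 5 perivascular macrophage markers, against 12.2%. Between genotypes under clozapine it was 2 of 4 oligodendrocyte, 1 of 5 perivascular macrophage and 1 of 4 choroid plexus markers, against 15.9%. DESeq2 called the oligodendrocyte markers Mag and Mbp between genotypes under clozapine and averaged, the fibroblast marker Col1a2 for clozapine averaged, and Ttr for clozapine in wild type and averaged. The list of 6 microglial markers summed to 304 to 322 CPM in labelled-knockout vehicle libraries, against 268 to 307 CPM in wild-type vehicle libraries. Of 4 excitatory neuron markers Camk2a rose in the labelled knockout under clozapine (log2 0.26, adjusted p = 0.038). Hemoglobin and the other red blood cell genes, a measure of blood left in the tissue, summed to 122 to 303 CPM in labelled-knockout clozapine libraries and 139 to 205 CPM in labelled-knockout vehicle libraries, against 212 to 437 CPM in wild-type clozapine libraries and 138 to 180 CPM in wild-type vehicle libraries. In wild type these sums lay apart between treatments, higher with clozapine, and the median log2 change of the 5 genes was 0.86. In the labelled knockout the sums overlapped. Fibroblast markers summed to 161 to 228 CPM in labelled-knockout clozapine libraries and 121 to 192 CPM in labelled-knockout vehicle libraries, against 126 to 195 CPM in wild-type clozapine libraries and 134 to 162 CPM in wild-type vehicle libraries. No marker of these lists was at 0 in all libraries. The part of these cells in the vessel gene results was not tested.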

How the data were processed

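Libraries of mouse frontal cortex RNA were made with an RNeasy kit and an Illumina mRNA kit, per the labels' protocols. STAR 2.5.1b, featureCounts 1.5.0 and GRCm38 are named in the submitters' processing notes. The table was deposited with estimated counts (7.385% of values are not whole), which were rounded for the tests, since the design had assumed whole counts. Strand use and the sharing of reads between genes are not given in the sources used here. Symbols and exonic lengths came from GENCODE mouse release 21.

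The 12 libraries were fitted together in edgeR 4.0.16 (R 4.3.3) with filterByExpr, TMM scaling and a robust quasi-likelihood fit. Benjamini-Hochberg adjustment ran over 17286 genes with a threshold of 0.05, for 7 comparisons: clozapine in each genotype, labelled genotype under each treatment, the interaction and both averaged effects. CPM are over TMM-scaled library sizes. The spread between libraries sets the precision. Members and lists were chosen with earlier results of these data known. Values by library are given for members that passed, for the next 2 by smallest p (Notch3 and Abcc9, which did not pass) and for defining genes. From each list, up to 3 genes that passed a comparison are named, or the 1 of smallest p, and Abcg2 was added after its values were seen. Of the listed genes outside the members, 2 that passed a comparison are not reported here. Alternatives were DESeq2 1.42.0, RLE size factors, no low-count filter, unrounded counts, a replicate block, and leaving out each library. A correction for GC content and gene length (17197 genes) was chosen after seeing the data. Simulated counts with known rises were used to check the test code. Those rises were larger than the changes of the members that passed, so the check does not cover changes of that size.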

Additional observations from a re-analysis of the deposited data

How the results depend on the processing

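Direction under the alternatives was followed for calls of members and pathway list genes, for members with an unadjusted p under 0.05, and for the averaged genotype difference of the defining genes. None of these changed direction. Other named values, such as those of Hdac2 and Camk2a, were not followed. Small differences could change sign: Myh11 under vehicle was at -0.18 with all libraries and at 0.03 without wild-type vehicle library 3. Of the vessel genes, 4 passed between labelled knockout and wild type under vehicle, 5 averaged over treatments and 1 for clozapine averaged over genotypes, and none in the other 4 comparisons. For clozapine in the labelled knockout, 1 passed with DESeq2, with no low-count filter and with the replicate block (Mfsd2a in each). Under clozapine between genotypes, 2 passed with DESeq2, 3 with no low-count filter, 1 with RLE size factors and 1 with the replicate block. With the replicate block 1 passed under vehicle (Mfsd2a; Eng had an adjusted p of 0.06) and 3 averaged over treatments. With the length and GC correction 7 passed averaged over treatments. Leaving out 1 library at a time gave counts of 2 to 4 under vehicle, 0 to 1 under clozapine, 2 to 6 averaged over treatments, 0 to 1 for clozapine in wild type, 0 to 0 in the labelled knockout, 0 to 1 averaged over genotypes and 0 to 0 for the interaction. The shares of all tested genes that passed in these alternative fits are not given here, apart from that under vehicle without wild-type vehicle library 3 (3.52%). A fit can pass more members because it passes more genes of any kind, so these counts describe the members alone. The cause of these shifts was not tested. No label says that replicate numbers tie libraries together, and same-numbered libraries of different groups had correlations of -0.0803 to 0.123, so the block was not used in the reported tests. With 3 libraries a group, differences as small as those of most members may go undetected, and members with few counts, Icam2 and Higd1b, are the least precise.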
